A study of Mus musculus with 16 samples.

Results

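Mutant and wildtype fibroblasts were compared after growth had slowed. The comparison holds 12 of the 16 RNA-seq libraries of the series, chosen by the labels' genotype and day: 6 mutant libraries against 6 wildtype libraries, all labelled quiescent. The cells were mouse embryonic fibroblasts, connective tissue cells taken into culture from C57BL/6 embryos at embryonic day 13.5 and kept in DMEM with 10% serum. Wildtype cells are labelled Zac+/+ and mutant cells Zac+/-, where Zac1 is an older name of Plagl1. The titles of the mutant libraries add KOpat, which the labels used here do not spell out. Each genotype was represented by 2 lines, replicate 1, which carries the letter I in both genotypes, and replicate 2, which carries the letter L. What the letters mark is not said. Every line was harvested at day 8, day 10 and day 12, so the 3 harvests are repeats of 1 line, and the comparison rests on 2 lines against 2. The 4 libraries of day 2, labelled proliferative, entered the fit and serve as a point of reference. The labels used here do not say which part of the gene is altered in the mutant or how many embryos went into a line.

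Plagl1 encodes a zinc finger transcription factor that binds GC-rich DNA and can arrest the cell cycle. It is an imprinted gene, expressed in most embryonic tissues from the copy inherited from the father, and a cell that lacks a working paternal copy keeps a largely silent maternal one. Plagl1 has been described as a node of a network of imprinted genes that control embryonic growth, among them Igf2, H19, Dlk1, Meg3 and Cdkn1c, and as a regulator of genes of the extracellular matrix. Quiescence is a reversible stop of division, which fibroblasts enter when crowded.

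The labels held in the checks that the files allow. Summed levels of 15 fibroblast markers such as Col1a1 and Dcn were 50879 and 56220 CPM (counts per 1000000 counts of a library, with library sizes scaled by TMM) in the wildtype lines and 61190 and 59145 CPM in the mutant lines, and none of 10 listed erythroid markers passed the filter on low counts. The division marker Mki67 was at 169 to 241 CPM in the libraries of day 2 and at 36.2 to 93.3 CPM in the quiescent libraries, so it was lower in quiescence without being absent. Total counts of the 12 libraries were 32031720 to 58971789, and a count of 3 corresponded to 0.0509 to 0.0937 CPM. The mutant libraries of day 12 were the shallowest, with 32031720 and 37207510 counts, so day 12 weighs less in the mutant sums used below.

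Plagl1 (NCBI gene 22634) was the only gene called in quiescence, and it was lower in the mutant in every library. At day 8 it stood at 165 CPM in the first and 128 CPM in the second wildtype line, and at 48.3 CPM and 55.9 CPM in the mutant lines. At day 10 the wildtype lines were at 211 and 164 CPM and the mutant lines at 40.6 and 51.4 CPM. At day 12 the values were 230 and 204 CPM against 60.0 and 46.9 CPM. The lowest wildtype library was thus more than 2 times as high as the highest mutant library, and the genotypes did not overlap on any day. The mutant mean was 35.6%, 24.5% and 24.7% of the wildtype mean at days 8, 10 and 12, and 20.2% at day 2. With the 3 harvests of each line summed, Plagl1 fell by 1.88 on the log2 scale (SE 0.15, edgeR quasi-likelihood test, adjusted p = 0.00297, 2 lines against 2). The log2 fold changes of the single days were -1.49 (SE 0.19), -2.03 (SE 0.19) and -2.02 (SE 0.19). In wildtype lines the level was higher at day 12 than at day 8, while the mutant lines did not move together over these days. The remaining mutant level was far above the counting floor, and the counts cover the annotated gene as a whole, so whether these reads come from an altered or an intact transcript was not tested.

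**Figure D1:**
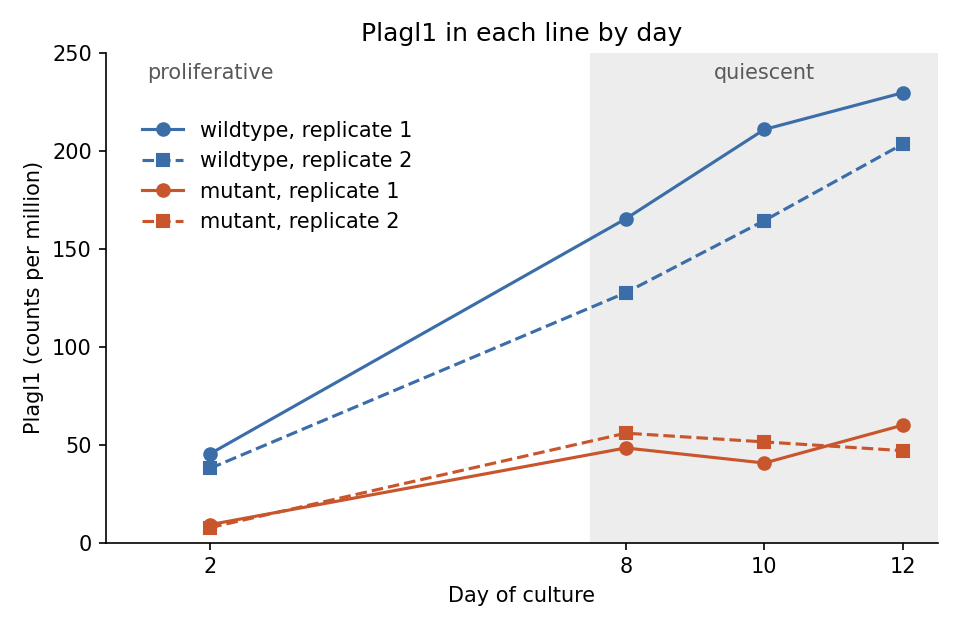
Level of Plagl1 in CPM (vertical axis) against the day of culture (horizontal axis) in each of the 2 wildtype and 2 mutant lines, 1 point per library. Quiescent wildtype libraries lie between 128 and 230 CPM and quiescent mutant libraries between 40.6 and 60.0 CPM.

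The promoter of Plagl1 is shown because it is the gene called. It spans 250 bases before and 50 after the start listed by RefSeq on GRCm38.p6 (chr10:13090582-13090881, plus strand), a build other than that of the counts, and is written from 5′ to 3′ on the gene's strand. Capitals mark GGGGCC, the core of the palindrome GGGGCCCC that the PLAGL1 protein is known to bind. The core was searched on both strands, lies within the palindrome, and was held by 25.0% of 32851 promoters of the same length, while the palindrome was held by 1.08%. Neither a match nor its absence says whether the protein binds.
Plagl1: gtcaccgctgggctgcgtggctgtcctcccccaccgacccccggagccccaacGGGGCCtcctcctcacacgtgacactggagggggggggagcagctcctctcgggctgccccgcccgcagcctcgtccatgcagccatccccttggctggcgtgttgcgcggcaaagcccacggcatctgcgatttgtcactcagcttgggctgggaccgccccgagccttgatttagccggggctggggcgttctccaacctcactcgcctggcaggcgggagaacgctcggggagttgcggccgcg

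No other gene was called. Of 15740 genes tested on the summed libraries, 1 passed an adjusted p of 0.05 (0.00635%), every gene but Plagl1 had an adjusted p of 1.00, and 76 had an unadjusted p under 0.05. A fit of the 12 quiescent libraries with day as a term, which treats the harvests of a line as independent, again called Plagl1 alone of 15250 genes (0.00656%), with 499 genes at an unadjusted p under 0.05. The fitted log2 fold change was above 0 for 54.8% of all genes, with a median of 0.01. Over 12596 genes, the median gap on the log2 scale was 0.11 between the wildtype lines, 0.13 between the mutant lines and 0.06 between genotype means, and at day 10 each of the 3 values was 0.17. A mean of 2 lines varies less than a single line, so the value for genotype means would be the smaller one without any difference. By exact permutation of the lines the smallest two-sided p that this design allows is 0.333, which Plagl1 reached, so its call rests on the spread that edgeR estimates across genes. When only the 4 quiescent sums were fitted, without day 2, no gene was called (126 at an unadjusted p under 0.05), and Plagl1 had a log2 fold change of -1.90 with an adjusted p of 0.289. DESeq2 called 1 gene as well, again Plagl1.

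**Figure D2:**
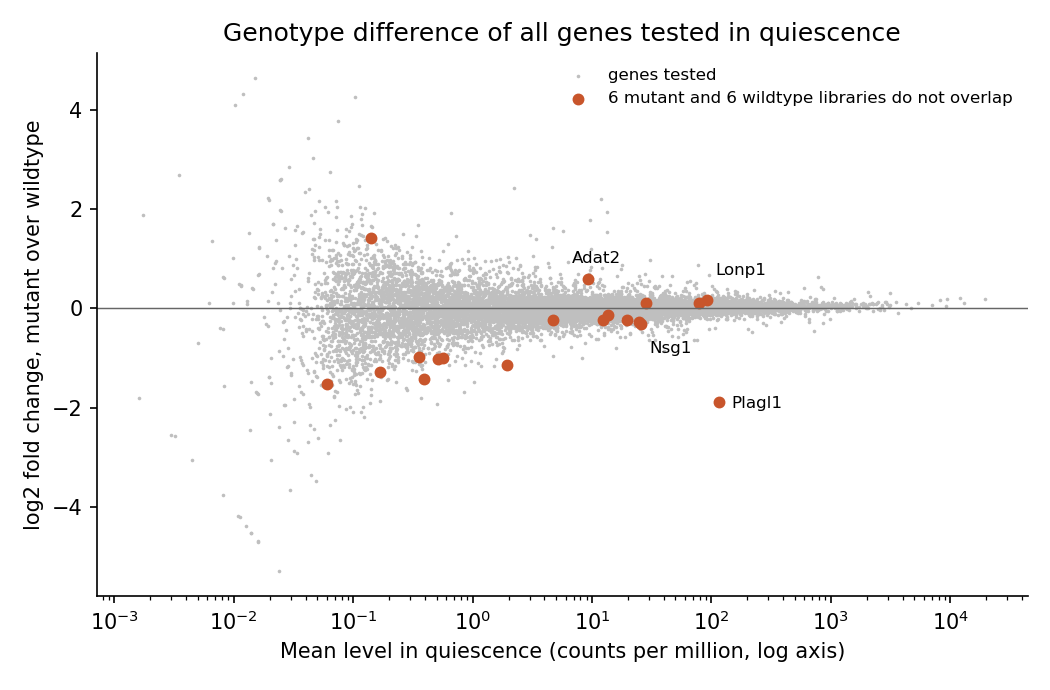
Log2 fold change of mutant over wildtype (vertical axis) against the mean quiescent level in CPM (horizontal log axis) for each gene tested. Marked are the 19 genes whose 6 mutant and 6 wildtype libraries do not overlap, of which Plagl1 lies at -1.88 and Adat2 at 0.58.

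A small set of genes kept the genotypes apart in all 12 libraries. The 6 mutant libraries lay above the 6 wildtype libraries for 5 genes (0.0318%) and below them for 14 (0.0889%). Of these, 8 had under 5 CPM and 2 had clone names, which leaves 9 genes, Plagl1 among them, and none of the other 8 was called. Adat2, a subunit of an enzyme that edits adenosine in transfer RNA, was at 6.20 to 8.53 CPM in wildtype libraries and 10.1 to 13.6 CPM in mutant libraries. Its log2 fold change was 0.58 (SE 0.15), and at day 2 it was 0.44. Lonp1, a protease of the mitochondrial matrix, was at 82.9 to 89.9 CPM against 91.5 to 106 CPM (log2 fold change 0.17, SE 0.12), and Hsd17b4, an enzyme of peroxisomal fatty acid oxidation, had a log2 fold change of 0.10 (SE 0.09). These differences are small beside that of Plagl1. Genes of this set were picked for their order over libraries, so this order is not separate evidence of a difference. The order also counts the harvests of a line as if they were independent. How many genes would separate in this way without a genotype difference was not tested.

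On the lower side, Nsg1, an endosomal protein of neurons, was at 26.8 to 33.6 CPM in wildtype and 18.4 to 26.4 CPM in mutant libraries, with a log2 fold change of -0.32 (SE 0.11) in quiescence and -0.01 at day 2. Cplx2, a complexin that acts in vesicle fusion, had -0.27 (SE 0.13). Mxi1, an antagonist of Myc, had -0.22 (SE 0.16), the deubiquitinase gene Usp11 -0.23 (SE 0.21), and Ppm1d, a phosphatase that dampens p53 signalling, -0.14 (SE 0.13). The sign at day 2 was the same for 7 of the 9 genes.

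In the sums, imprinted genes lay more often on the lower side than genes as a whole, though Plagl1 was the only one called. The list of the imprinted gene network held 18 genes, all tested: 5 had a log2 fold change above 0 and 13 below, against 54.8% above 0 over all genes, and the median was -0.07. With Plagl1 included, 5 of the 18 had both mutant sums below both wildtype sums (11.2% of all genes did) and 0 had them above (11.6% of all genes). Of 54 other imprinted genes 42 were tested, 15 above and 27 below 0 with a median of -0.05. Of these 42, 11 had both mutant sums lower and 0 had them higher. Of the network, 5 of 18 were above 0 at each of days 8, 10 and 12. Of 41 other imprinted genes tested by day, 14, 13 and 20 were above 0, with medians of -0.094, -0.15 and -0.003. At day 12 both mutant libraries were lower for 11.9% of the 42 and higher for 9.52%, against 12.1% and 9.07% of all genes. At day 2 the median of the network was 0.08, with 13 of 18 above 0, and that of the other imprinted genes -0.00, with 20 of 42 above 0.

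Cdkn1c, the maternally expressed inhibitor of cyclin-dependent kinases called p57, had the smallest p of the network after Plagl1. Its summed levels were 71.6 and 53.7 CPM in the wildtype lines and 48.8 and 34.3 CPM in the mutant lines, replicate 1 given first as in all pairs of values that follow. Both mutant lines were below both wildtype lines in the sums and at each of the 3 days, at day 10 by a narrow gap of 59.2 against 60.0 CPM. The log2 fold change was -0.59 (SE 0.18, edgeR unadjusted p = 0.00933, adjusted p = 1.00), with -0.82, -0.31 and -0.84 at days 8, 10 and 12 and -0.12 at day 2. Of the 6 other inhibitors of this kind that were tested, Cdkn1a was at 662 and 645 CPM against 700 and 616 CPM, and Cdkn1b at 50.5 and 53.6 CPM against 51.2 and 53.4 CPM. Lines of the genotypes overlapped for both of these genes. Over all 7 tested inhibitors, Cdkn1c included, 5 were above 0, and log2 fold changes ran from -0.59 to 0.54. Both mutant sums lay above both wildtype sums for 1 of the 7, and below them for 1, Cdkn1c. By day, 3, 5 and 1 of the 7 were above 0 at days 8, 10 and 12.

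Several transcripts of the Dlk1 and Meg3 region on the maternal chromosome were lower in both mutant lines. Meg3, a long non-coding RNA, was at 992 and 697 CPM in wildtype and 678 and 549 CPM in mutant lines (log2 fold change -0.45, SE 0.18). Rian, which hosts small nucleolar RNAs, was at 750 and 702 CPM against 570 and 620 CPM (-0.28, SE 0.12), and Mirg, a host of microRNAs, at 23.3 and 20.2 CPM against 15.4 and 18.7 CPM (-0.34, SE 0.15). Unadjusted p was under 0.05 for Meg3, Rian and Mirg, and adjusted p was 1.00. The paternally expressed ligand gene Dlk1 of the same region was at 123 and 61.04 CPM against 64.3 and 53.01 CPM, so its genotypes overlapped (-0.65, SE 0.69).

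Of the other imprinted genes described singly, Zim1 and Peg3 differed most at day 10, and for Igf2 and H19 the genotypes overlapped. Whether the days differ was not tested. Zim1, a zinc finger gene beside Peg3, was at 65.7 and 71.3 CPM in wildtype and 46.7 and 53.5 CPM in mutant lines (log2 fold change -0.44, SE 0.18), with -0.87 at day 10 but -0.18 and -0.15 at days 8 and 12. Peg3, a paternally expressed zinc finger gene, had a log2 fold change of -0.19 (SE 0.17), with -0.61 at day 10 and within 0.04 of 0 on the other days, and without day 10 its sign changed. The growth factor gene Igf2 was at 3410 and 4083 CPM against 3322 and 3666 CPM, where the genotypes overlap (-0.09, SE 0.22, and 0.05 without wildtype replicate 2). H19, the maternally expressed RNA beside Igf2, was at 3828 and 5676 CPM against 4233 and 5180 CPM. Magel2, of the Prader-Willi region, was close to the floor with 5 and 4 counts summed over 3 harvests in wildtype lines and 0 in each mutant line, against 25 and 18 counts and 10 and 15 counts at day 2, and no fold is given. Beside these values, the spread between lines of a genotype exceeded the genotype difference for Igf2 and H19.

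**Figure D3:**
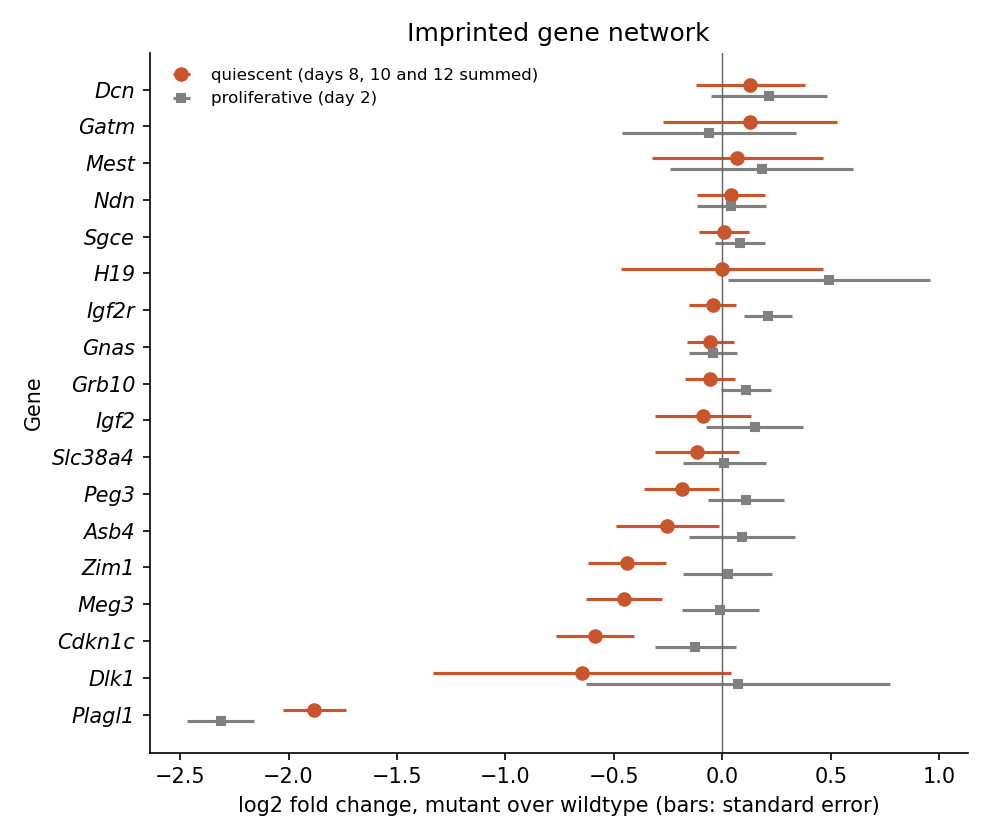
Log2 fold change of mutant over wildtype (horizontal axis) for the 18 genes of the imprinted network (vertical axis), in quiescence and at day 2, with bars of 1 standard error. Plagl1 lies at -1.88 in quiescence and -2.31 at day 2, and 13 of the 18 quiescent values are below 0.

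Collagens of the fibrillar type form the bulk of the matrix that fibroblasts lay down, and none was called. Of 11 tested, 9 had a log2 fold change above 0 and 2 below, against 54.8% above 0 over all genes, with a median of 0.18 (0.041 without mutant replicate 2). In 3 of the 11 both mutant sums were higher, against 11.6% of all genes. By day, 5, 9 and 9 of the 11 were above 0 at days 8, 10 and 12, with medians of -0.0099, 0.29 and 0.19. Col1a2 was at 10907 and 11569 CPM in wildtype and 12694 and 12982 CPM in mutant lines (log2 fold change 0.20, SE 0.11, with 0.29 at day 2). Col1a1 had 0.18 (SE 0.12) and Col3a1 0.17 (SE 0.12), while the minor collagen gene Col24a1 was at 23.9 and 15.8 CPM in wildtype and 14.9 and 15.2 CPM in mutant lines (-0.39, SE 0.22). Fibroblast markers, a list that shares Col1a1 and Col1a2 with this one, had 13 of 15 above 0 with a median of 0.13 (0.065 without wildtype replicate 1), and in bulk RNA a different share of cells cannot be told apart from a different level per cell. Other collagens were split, with 15 above and 16 below 0 of 31.

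Proteases that cut the matrix had more values below than above 0 in the sums, which did not hold on every day. Of 22 ADAMTS genes tested, 3 were above and 19 below 0 (median -0.09), but the median turned to 0.19 when wildtype replicate 1 was left out and to 0.03 when mutant replicate 2 was, and 16 of the 22 had their highest sum in wildtype replicate 1. Of 22 matrix metalloproteinases, inhibitors and related enzymes, 5 were above and 17 below 0 (median -0.06, and -6.6e-05 without mutant replicate 2). By day, 7, 12 and 11 of these 22 genes and 11, 6 and 10 of the 22 ADAMTS genes were above 0 at days 8, 10 and 12. In both lists the count above 0 was lower in the sums than at any single day. Mutant sums hold a smaller share of day 12 than wildtype sums, and the part of this in these counts was not tested. Mmp3, or stromelysin, had the smallest p of this group with 14.8 and 6.99 CPM in wildtype and 5.96 and 4.95 CPM in mutant lines (log2 fold change -0.99, SE 0.31, edgeR unadjusted p = 0.011, adjusted p = 1.00), and its highest library was wildtype replicate 1 at day 12 with 26.3 CPM. Mmp13, a collagenase, was at 78.3 and 24.6 CPM against 26.1 and 30.2 CPM, so that wildtype replicate 1 alone stood high (-0.86, SE 0.52, and 0.21 without that line). Timp3, an inhibitor of these enzymes bound to the matrix, was at 1717 and 2207 CPM against 2413 and 2226 CPM (0.25, SE 0.13).

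Among single matrix and signalling genes, those with the smallest p had differences below 2-fold, apart from low or variable genes. Ctgf, a matricellular protein and target of YAP, was at 661 and 831 CPM in wildtype and 824 and 1124 CPM in mutant lines (log2 fold change 0.40, SE 0.16). Gpc3, a glypican that restrains growth, was at 92.6 and 80.4 CPM against 69.1 and 41.7 CPM (-0.64, SE 0.36), and Matn2, a matrilin, at 62.6 and 41.8 CPM against 36.5 and 41.5 CPM (-0.41, SE 0.20). In all, 22 of 43 matrix glycoproteins were above 0 with a median of 0.01, whose sign changed under another scaling.

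Genes around growth factor receptors held some of the lowest unadjusted p. Hbegf, a ligand of the EGF receptor, was at 33.2 and 42.2 CPM in wildtype and 52.9 and 51.2 CPM in mutant lines (log2 fold change 0.47, SE 0.12, edgeR unadjusted p = 0.00338, adjusted p = 1.00). It was higher at day 8 in both mutant lines, with 37.1 and 40.3 CPM in wildtype and 51.4 and 52.3 CPM in mutant lines, and at day 10, with 33.9 and 33.1 CPM against 61.8 and 51.5 CPM. At day 12 the genotypes overlapped, with 30.1 and 54.2 CPM in wildtype and 40.1 and 52.9 CPM in mutant lines. Dusp6, a phosphatase that is induced by ERK and switches it off, was at 27.2 and 29.5 CPM in wildtype and 36.6 and 33.6 CPM in mutant lines (0.32, SE 0.11). Over the whole list of PDGF, FGF and ERK feedback genes, 19 of 29 were above 0, with a median of 0.07 (-0.0092 without mutant replicate 1).

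Nuak2, a kinase related to AMPK, was at 10.7 and 14.5 CPM in wildtype and 18.7 and 20.6 CPM in mutant lines (log2 fold change 0.65, SE 0.19), and Dio2, the enzyme that activates thyroid hormone, at 9.14 and 7.86 CPM against 4.49 and 5.33 CPM (-0.78, SE 0.24). For both genes the mutant lines lay apart from the wildtype lines in the sums. In the insulin-like growth factor axis, 12 of 21 genes were above 0, with a median of 0.01 whose sign changed under another scaling. Igfbp2, a binding protein of these growth factors, was at 237 and 165 CPM against 251 and 262 CPM (0.36, SE 0.17), and Stc2, a stanniocalcin that blocks the release of these factors, at 4.02 and 4.18 CPM against 5.61 and 5.10 CPM (0.39, SE 0.21).

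Genes of the integrated stress response were higher in the mutant by small steps, and none was called. This response starts when cells sense a lack of amino acids, misfolded proteins or other stress, phosphorylates the initiation factor eIF2 and raises translation of the transcription factor ATF4, which switches on genes for amino acid synthesis, amino acid transport and one-carbon metabolism. Of 22 tested genes, 21 had a log2 fold change above 0 (54.8% of all genes did), with a median of 0.20 against 0.01 over all genes. In 14 of the 22, both mutant sums lay above both wildtype sums (11.6% of all genes), and in 0 below. The highest sum was in mutant replicate 2 for 19 of the 22, and the median was 0.12 without that line and 0.28 when mutant replicate 1 was left out. The list was fixed with earlier results of these data known, and its genes are known to move together, so they are not 22 separate pieces of evidence.

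Regulators and enzymes lay on the same side. Atf4 was at 184 CPM in both wildtype lines and at 199 and 220 CPM in the mutant lines (log2 fold change 0.20, SE 0.12), and Trib3, a pseudokinase that feeds back on ATF4, at 36.0 and 34.8 CPM against 38.8 and 46.7 CPM (0.28, SE 0.15). Chac1, which degrades glutathione, had the smallest p with 16.4 and 17.5 CPM against 20.5 and 24.2 CPM (0.41, SE 0.16, edgeR unadjusted p = 0.0256, adjusted p = 1.00). For all of these genes the mutant lines were above the wildtype lines, with replicate 2 the higher mutant line.

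Asns, asparagine synthetase, was at 116 CPM in both wildtype lines and at 127 and 145 CPM in the mutant lines (log2 fold change 0.24, SE 0.12). Psat1 and Phgdh, which make serine, had 0.24 (SE 0.11) and 0.19 (SE 0.11), and Mthfd2, an enzyme of mitochondrial folate metabolism, was at 69.1 and 72.4 CPM against 78.6 and 88.2 CPM (0.25, SE 0.11). Aldh1l2, another mitochondrial folate enzyme, had 0.23 (SE 0.10). These serine and folate genes thus had log2 fold changes of 0.19 to 0.25. Psat1, Mthfd2 and Aldh1l2 were named because their p was among the smallest of the list. At days 8, 10 and 12 Aldh1l2 had 0.23, 0.06 and 0.38, so its difference was smallest at day 10.

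The median shift of the stress response list was largest at day 10. The median of the 22 genes was 0.06 at day 8, 0.35 at day 10 and 0.16 at day 12, and within 0.01 of 0 at day 2. Both mutant libraries lay above both wildtype libraries for 5 of the 22 at day 8 (17.5% of all genes), for 16 at day 10 (22.7%) and for 2 at day 12 (9.07%), and lay below for 0 at each of these days (17.1%, 17.2% and 12.1% of all genes). A high share at day 10 was not particular to this list. Both mutant libraries were higher at day 10 for 24 of 30 ribosomal protein genes (lower for 0). The same held for 10 of 14 contractile genes of myofibroblasts (lower for 1). Endoplasmic reticulum chaperones, which belong to another branch of the stress response, had 16 of 18 above 0 in the sums with a median of 0.05. By day, 10, 14 and 12 of the 18 were above 0, so the count in the sums exceeded that of each day. At day 10 both mutant libraries were higher for 10 of these 18 and lower for 3.

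**Figure D4:**
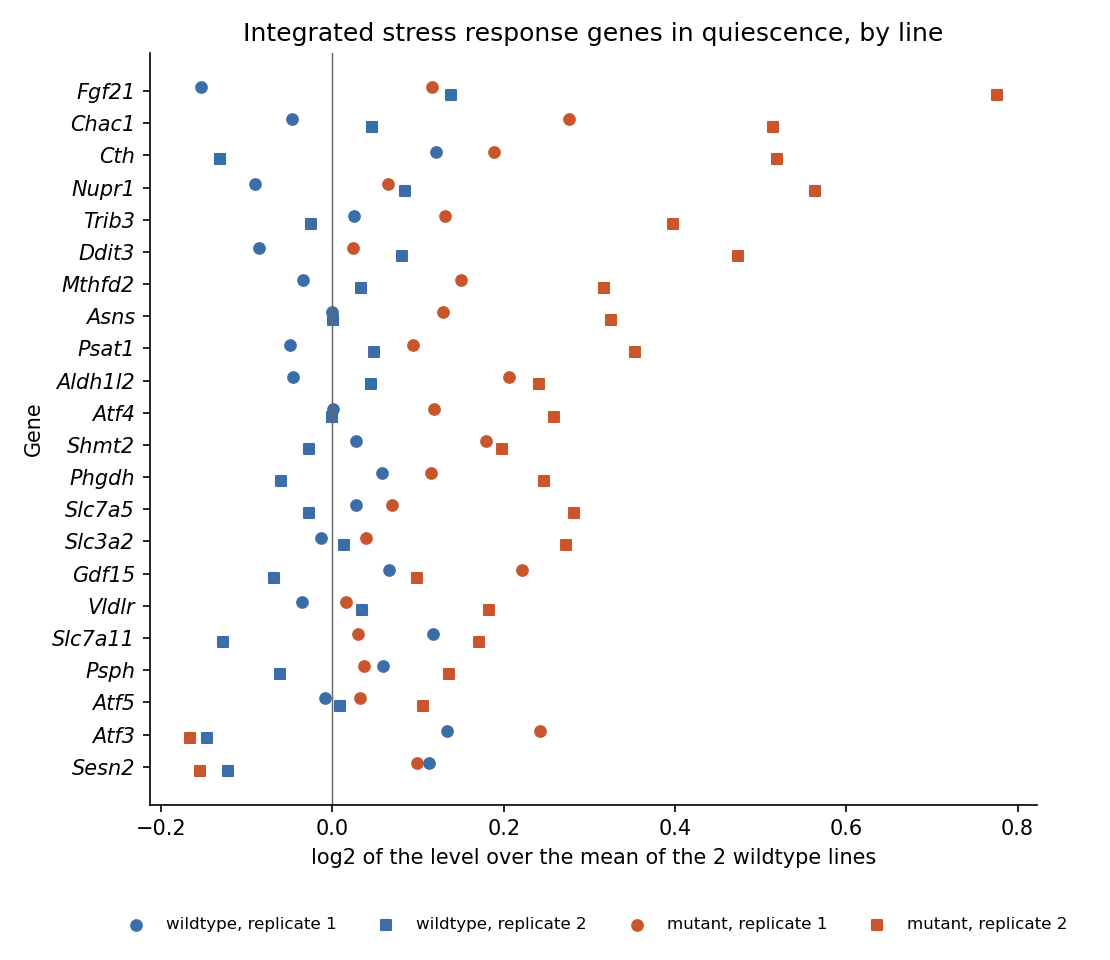
Level of each integrated stress response gene (vertical axis) in the summed libraries of each line, as log2 of the ratio to the mean of the 2 wildtype lines (horizontal axis). Both mutant lines lie to the right of both wildtype lines for 14 of the 22 genes, and mutant replicate 2 is the highest line for 19.

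Promoters of genes on this list are shown because ATF4, with C/EBP partners, is known to bind an element that contains TGATGCAA. These letters or their reverse complement TTGCATCA were in the promoter of 6 of the 19 listed genes that have an entry, Atf3, Chac1, Fgf21, Nupr1, Slc7a11 and Vldlr, and in 1.03% of 27025 genes with a promoter in RefSeq. The match describes the list and not the mutant, and it includes genes with small differences such as Atf3 and Slc7a11. The windows are those of GRCm38.p6 for Chac1 (chr2:119350992-119351291, plus strand), Nupr1 (chr7:126625421-126625720, minus strand) and Slc7a11 (chr3:50443564-50443863, minus strand), written as for Plagl1, with the element in capitals. Chac1 had the smallest p of the list, Nupr1 is a stress-induced nuclear protein that was at 132 and 149 CPM in wildtype and 146 and 207 CPM in mutant lines, and Slc7a11, the cystine importer, holds the element on both strands.
Chac1: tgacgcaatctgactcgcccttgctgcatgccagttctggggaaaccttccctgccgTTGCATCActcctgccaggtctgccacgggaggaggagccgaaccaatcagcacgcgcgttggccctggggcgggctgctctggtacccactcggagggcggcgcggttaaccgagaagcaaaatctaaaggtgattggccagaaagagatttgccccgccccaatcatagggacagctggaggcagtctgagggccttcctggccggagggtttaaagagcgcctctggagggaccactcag
Nupr1: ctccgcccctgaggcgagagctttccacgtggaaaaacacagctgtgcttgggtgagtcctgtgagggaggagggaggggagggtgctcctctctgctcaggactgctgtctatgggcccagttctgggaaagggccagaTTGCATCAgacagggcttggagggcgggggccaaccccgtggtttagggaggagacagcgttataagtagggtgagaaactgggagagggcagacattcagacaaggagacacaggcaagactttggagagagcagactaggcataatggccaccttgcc
Slc7a11: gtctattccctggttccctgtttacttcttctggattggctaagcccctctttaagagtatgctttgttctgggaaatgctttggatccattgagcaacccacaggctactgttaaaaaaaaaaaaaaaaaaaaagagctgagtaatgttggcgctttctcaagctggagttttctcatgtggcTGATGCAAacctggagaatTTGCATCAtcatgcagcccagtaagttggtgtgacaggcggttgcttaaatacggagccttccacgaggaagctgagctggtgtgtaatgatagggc

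Metabolic groups beside the stress response leaned the same way in the sums. For cholesterol synthesis 23 of 24 genes were above 0 (median 0.11, and 0.060 without wildtype replicate 2), and in 11 of the 24 both mutant sums were above both wildtype sums, against 11.6% of all genes. For glycolysis and hypoxia 21 of 26 were above 0 (median 0.12, and 0.040 without wildtype replicate 1). At days 8, 10 and 12, 12, 20 and 16 of the 24 and 16, 21 and 17 of the 26 were above 0. The medians by day were -0.01, 0.22 and 0.05 for cholesterol synthesis and 0.04, 0.22 and 0.03 for glycolysis and hypoxia. Idi1 and Fdps, enzymes of the isoprenoid steps that lead to cholesterol, had log2 fold changes of 0.25 (SE 0.14) and 0.19 (SE 0.11). By day Idi1 had 0.33, 0.10 and 0.04, and Fdps -0.04, 0.40 and 0.11. The glucose transporter gene Slc2a1 was at 65.0 and 68.0 CPM in wildtype and 80.5 and 75.3 CPM in mutant lines (0.24, SE 0.12), whereas Eno2, the neuronal form of the glycolytic enzyme enolase, was at 29.4 and 26.9 CPM against 23.9 and 20.8 CPM (-0.32, SE 0.13). Housekeeping genes were above 0 for 15 of 16 with a median of 0.04 (-0.024 without mutant replicate 2), so a count of signs above 0 was high also where the size was near that of all genes. By day, 6, 11 and 8 of these 16 were above 0.

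Proliferation genes differed in sign between days. Of 30 S phase genes 25 were above 0 in the sums, with a median of 0.05, but 9 were above 0 at day 8, 24 at day 10 and 1 at day 12. Cdc45, which helps to unwind DNA at replication forks, had 0.26 (SE 0.12) in the sums, with 0.08, 0.45 and -0.07 at days 8, 10 and 12, and Tk1, thymidine kinase, had 0.24 (SE 0.11) with -0.06, 0.50 and -0.04. The 29 genes of G2 and M phase followed the same days, with 26 above 0 in the sums and 8, 21 and 2 by day. Their medians by day were -0.05, 0.09 and -0.14. Ribosomal protein genes had a median of 0.06, with -0.12, 0.22 and 0.01 by day and -0.16 at day 2. Without mutant replicate 2 the medians in the sums were -0.0021 for the G2 and M genes and -0.03 for the ribosomal genes. The sign of these lists therefore depended on the day that was read. For the S phase and the G2 and M genes, the count above 0 in the sums exceeded that of each single day. Mutant sums hold a smaller share of day 12 than wildtype sums, and the part of this in the sums was not tested.

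Day 10 held the most genotype differences of the 3 days, by unadjusted p. At each of days 8, 10 and 12, Plagl1 was the only gene called by edgeR (0.00648% of 15439), but 276, 1507 and 227 genes had an unadjusted p under 0.05. These fits count the lines of a day as replicates and share their spread over 16 libraries. DESeq2 called 15 genes at day 10 (0.0972%), of which 4 were higher and 11 lower, and Plagl1 alone at days 8 and 12. Beside Plagl1 these were Nuak2, Dio2, Zim1 and Rian, described above, with Fam122b, Zfp192, Kctd12b, Phactr2, Rab11fip2, Slc25a33, Zfp329, Epm2aip1, Rps19bp1 and Pkhd1. The number of genes that edgeR called at day 10 ran from 0 without wildtype replicate 1 to 51 without mutant replicate 1.

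Some of these genes had their largest fold change at day 10, which their choice by day 10 values favours. Kctd12b, of the potassium channel tetramerisation domain family, had log2 fold changes of -0.25, -0.94 and -0.21 at days 8, 10 and 12, and Phactr2, a regulator of phosphatase and actin, had -0.07, -0.56 and -0.17. The mitochondrial nucleotide carrier gene Slc25a33 had -0.00, 1.02 and 0.16. For Zfp192, Rab11fip2, Rps19bp1, Zfp329 and Epm2aip1 the sign of the summed fold change turned when day 10 was left out. Whether the effect at day 10 differs from that at the other days was not tested.

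Several groups of genes with large fold changes also differed widely between the lines of a genotype. Cartilage markers had 13 of 16 above 0 with a median of 0.93, but 14 of 16 were highest in mutant replicate 2, and without that line the median was -0.61. Hapln1, which ties hyaluronan to proteoglycans, was at 7.64 and 34.3 CPM in wildtype and 13.9 and 67.6 CPM in mutant lines (log2 fold change 0.98, SE 1.00, and -0.60 without mutant replicate 2). Comp, a cartilage matrix protein, was at 30.3 and 79.4 CPM against 56.1 and 142.8 CPM (0.88, SE 0.73). For Hapln1 and Comp the lines stood in the order wildtype replicate 1, mutant replicate 1, wildtype replicate 2, mutant replicate 2, so the genotypes interleave, while among lines of the same replicate number the mutant was the higher one both times. Acan, or aggrecan, was at 2.45 and 6.18 CPM against 2.13 and 37.0 CPM, and Epyc, a small proteoglycan, at 3.26 and 7.83 CPM against 3.59 and 38.4 CPM, so mutant replicate 2 alone stood high.

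Wildtype replicate 1 stood apart for another set. Tbx4, a transcription factor of the hindlimb, was at 10.4 and 38.0 CPM in wildtype and 35.1 and 35.6 CPM in mutant lines. Aqp5, a water channel, was at 10.8 and 62.6 CPM against 61.3 and 52.8 CPM, and Mab21l2, an embryonic patterning gene, at 14.0 and 47.6 CPM against 41.1 and 41.9 CPM. Esm1, a secreted proteoglycan, was at 3.82 and 21.4 CPM against 26.7 and 19.1 CPM. For these genes wildtype replicate 2 lay close to the mutant lines. Without wildtype replicate 2, which leaves wildtype replicate 1 as the sole quiescent wildtype line, edgeR called 4 of 16076 genes (0.0249%), namely Plagl1, Aqp5, Tbx4 and Esm1.

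Markers of macrophages and blood cells also differed between the lines of each genotype. All 18 tested were above 0 (median 0.53), yet 18 of 18 were highest in mutant replicate 1 and 17 were lowest in mutant replicate 2. Their summed level was 76.0 and 255 CPM in wildtype and 421 and 52.4 CPM in mutant lines. Leaving out mutant replicate 1 gave a median of -1.77, leaving out wildtype replicate 1 gave -0.087, and leaving out wildtype replicate 2 gave 1.65. Lyz2, lysozyme of myeloid cells, was at 26.9 and 96.0 CPM against 158 and 17.0 CPM. Both Xist, expressed by cells with more than 1 X chromosome, and Y-linked genes were read in every line: Xist was at 581 and 677 CPM against 899 and 264 CPM, and Ddx3y at 58.0 and 45.8 CPM against 18.0 and 99.2 CPM. The part of these differences in any result above was not tested.

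**Figure D5:**
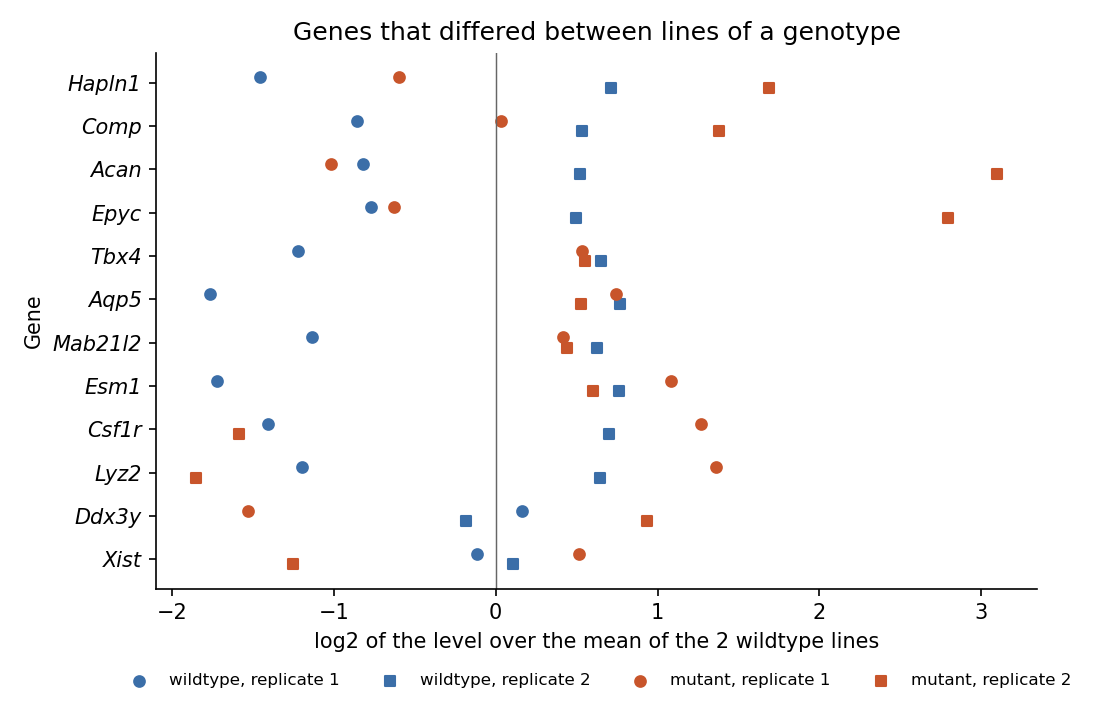
Level of 12 genes (vertical axis) in the summed quiescent libraries of each line, as log2 of the ratio to the mean of the 2 wildtype lines (horizontal axis). Mutant replicate 2 is far to the right for Acan and Epyc, wildtype replicate 1 far to the left for Tbx4 and Aqp5, and the genotypes overlap for all 12 genes.

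The genotype difference in quiescence was set against that at day 2. The difference between the 2 was called for no gene of 15740 (0%) by edgeR, with 265 at an unadjusted p under 0.05, and for 1 gene by DESeq2, Islr. Plagl1 had log2 fold changes of -1.88 in quiescence and -2.31 at day 2, and their difference of 0.43 (SE 0.21) had an adjusted p of 1.00. Islr, a secreted protein with leucine-rich repeats made by fibroblasts, had -0.23 (SE 0.16) in quiescence and 1.35 (SE 0.24) at day 2. Hbegf had 0.47 against -0.12, Dio2 -0.78 against 0.38, and Col24a1 -0.39 against 0.67, with unadjusted p of the difference of 0.00668, 0.0102 and 0.00954. For Hbegf, Dio2 and Col24a1 the sign differed between states, and the adjusted p of each difference was 1.00.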

How the data were processed

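The authors deposited a table of whole-number read counts, with no normalization, for 23100 genes under their symbols and NCBI identifiers. RNA was treated with DNase and made into stranded libraries, per the labels' protocols. The submitters' processing notes name bcl2fastq (2.18), TopHat2 (2.1.1), Bowtie2 (2.2.9), HTSeq (0.6.1p1) and the build mm9. The annotation and strand setting are not given in the sources used here. Overlapping genes and near-identical copies are therefore uncertain. No library was a copy of another: in each group the chi-square between lines, divided by its degrees of freedom, was 32.4 to 69.6.

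Raw counts of days 8, 10 and 12 were summed per line, without equalising depth between days. At day 12 the mutant libraries held 32031720 and 37207510 counts and the wildtype libraries 55575315 and 54325235. Day 12 therefore weighs less in the mutant sums. A gene that changes with day can then differ between sums without differing on any day. Genes kept by filterByExpr were tested in R 4.3.3 with the quasi-likelihood test of edgeR 4.0.16 (TMM, robust) over 8 summed libraries, 2 for each genotype in each state (4 residual degrees of freedom). The 2 sums of a line, from day 2 and from quiescence, entered as independent. P-values were Benjamini-Hochberg adjusted over all genes and called under 0.05. Single days used 16 libraries in 8 groups (8 residual degrees of freedom), with the harvests of a line as independent. Standard errors (SE) are the size of the log2 fold change divided by the root of F. Gaps between lines used log2(CPM + 0.5). Floors cover counting error only.

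The genotype comparison and the 50 gene lists were chosen with earlier results of these data known. Named genes were Plagl1, up to 12 in each direction with the smallest p among genes at 5 CPM or more whose 6 mutant and 6 wildtype libraries did not overlap (predicted and sex-linked genes left out), every gene called, also by an alternative calling at most 20 genes, and up to 4 members with the smallest p per list. The remaining genes (such as H19, Igf2, Dlk1, Peg3, Asns, Atf4, Trib3, Phgdh, Mki67, Cdkn1a, Lyz2 and those with a promoter shown) illustrate a list. Their choice came after their values had been seen.

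Alternatives were a replicate block, day as a term, limma-voom 3.58.1 with the line as a random effect, DESeq2 1.42.0, RLE and upper quartile scaling, other filters, a test against a fold change of 1.5, the quiescent libraries alone, and leaving out each line or day. Promoters are from RefSeq, GRCm38.p6, matched by NCBI gene ID or symbol. Coordinates on mm9 were not used here.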

Additional observations from a re-analysis of the deposited data

Results flagged for a closer look

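A library lay far from the other 5 of its genotype in 5 of 128 groups of 6 quiescent libraries, and chance flags about 1 in 20. In mutant replicate 2 at day 12, Adat2 was at 13.6 CPM, with the others at 10.1 to 11.4 CPM, and Mxi1 was at 10.0 CPM, with the others at 11.4 to 12.2 CPM. In wildtype replicate 2 at day 12, Col1a2 was at 12695 CPM, with the others at 10599 to 11315 CPM, and Ctgf was at 1096 CPM, with the others at 597 to 750 CPM. In wildtype replicate 1 at day 12, Mmp3 was at 26.3 CPM, with the others at 5.37 to 8.43 CPM. All of these libraries were of day 12.

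For 5 genes called by DESeq2 at day 10, both mutant lines lay on 1 side of both wildtype lines at that day and on the opposite side at day 8. The log2 fold changes at days 8 and 10 were 0.094 and -0.57 for Zfp192, 0.15 and -0.49 for Rab11fip2, 0.28 and -0.72 for Zfp329, 0.20 and -0.38 for Epm2aip1, and -0.46 and 0.86 for Rps19bp1. The difference between days was not tested, and the genes were picked by their values at day 10.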

How the results depend on the processing

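Plagl1 was called under each alternative for the summed comparison except the fit of the 4 quiescent sums alone, which called 0 genes, and its log2 fold change ran from -2.06 to -1.73. Leaving out a line gave 1 to 4 calls (4 without wildtype replicate 2). Lines of the same replicate number share a letter (I or L), and the labels do not say whether it marks a litter, a date or a batch, so with 2 pairs the pairing is not settled. Across genes, the gap between replicates 2 and 1 in wildtype and in mutant lines correlated at 0.15 (-0.01, 0.21 and 0.17 at days 8, 10 and 12). With day as a term and a replicate block there were 14 calls, 8 higher and 6 lower: Plagl1, Hapln1, Adamts3, Comp, B4galnt2, Cilp2, Syt13, Gpc3, Cdkn1c, Car6, Cldn19, Nsg1, Nrip2 and Lrrc15. That fit treats the harvests of a line as independent. Hapln1 had an adjusted p of 0.000261 in it and of 1.00 in the summed libraries with the block, which gave 1 call. For the difference between states DESeq2 called 1 gene and edgeR 0 in each setting run. At day 8 the 12 quiescent libraries alone gave 0 calls, so Plagl1 was not called. Plagl1 was also not called at day 8 when any single line was left out. It was not called at days 10 and 12 without wildtype replicate 1, nor at day 12 without mutant replicate 2. At day 10 the block gave 2 calls, DESeq2 gave 15, and leaving out a line gave 0 to 51. At day 12 leaving out a line gave 0 to 1. A lone line left in a group is assumed to vary like the others.

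Of 64 genes followed, 50 kept their sign under every alternative. Without day 10 the log2 fold change was 0.017 for Peg3, 0.038 for Zfp192, 0.059 for Rab11fip2, -0.31 for Rps19bp1, 0.16 for Zfp329 and 0.088 for Epm2aip1. Leaving out 1 line moved the log2 fold change of Mmp13 from -1.46 to 0.21, of Tbx4 from -0.10 to 1.78, of Aqp5 from -0.12 to 2.41 and of Mab21l2 from -0.19 to 1.58, with the turned sign without wildtype replicate 1. It ran from -0.60 to 2.43 for Hapln1, from -1.02 to 3.11 for Acan and from -0.63 to 2.81 for Epyc, negative without mutant replicate 2, and from -0.21 to 0.047 for Igf2, positive without wildtype replicate 2. The cause was not tested. Of 49 list medians, 46 kept their sign under each scaling (not CDK inhibitors, the insulin-like growth factor axis and matrix glycoproteins) and 15 under every alternative, among them both imprinted lists, fibrillar collagens, cholesterol synthesis and the integrated stress response. Genes near the floor of 0.0509 to 0.0937 CPM cannot show a difference at this depth.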

Other observations

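Hox genes and bone markers had more values below than above 0, and none was called. A list of other limb and body position factors had 19 of 35 above 0 (median 0.03). Of 13 anterior Hox genes, which set position along the body, 2 were above 0 and 11 below, with a median log2 fold change of -0.19, but 12 of the 13 were highest in wildtype replicate 1 and the median was 0.17 without that line. Of 22 central and posterior Hox genes, 7 were above and 15 below 0 (median -0.15). Of 13 bone markers, 2 were above and 11 below 0 (median -0.27, and -0.054 without wildtype replicate 1). Runx2, the master regulator of bone cells, was at 34.3 and 33.6 CPM in wildtype and 30.6 and 33.7 CPM in mutant lines. The secreted bone protein gene Spp1 was at 2312 and 2478 CPM against 1884 and 3333 CPM, so its mutant lines lay on both sides of the wildtype lines.

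Contractile genes of myofibroblasts had 13 of 14 above 0 with a median of 0.10, but 12 of the 14 were lowest in wildtype replicate 2 and the median was 0.00043 without that line. By day, 4, 13 and 11 of the 14 were above 0 at days 8, 10 and 12, with medians of -0.019, 0.21 and 0.084. At day 10, 10 of the 14 had both mutant libraries above both wildtype libraries, against 22.7% of all genes. Targets of the antioxidant regulator Nrf2 had 17 of 19 above 0 (median 0.11, and 0.029 without wildtype replicate 1), and p53 targets had 9 of 22 (median -0.01). For the Nrf2 targets 12, 15 and 15 of the 19 were above 0 by day, so the count in the sums exceeded that of each day. The part of the smaller share of day 12 in the mutant sums was not tested. Interferon-stimulated genes had 13 of 32 above 0 (median -0.02). Of these 32, 21 were lowest in mutant replicate 2, as were 4545 of all 15740 genes. Whether this relates to the macrophage markers, of which 17 of 18 were lowest in that line, was not tested.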
